A study of Mus musculus with 25 samples.

Results

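The genes described here are 9 members of the MHC class I antigen presentation pathway: the heavy chain genes H2-K1 and H2-D1, the light chain gene B2m, the peptide transporter genes Tap1 and Tap2, the tapasin gene Tapbp, the immunoproteasome genes Psmb8 and Psmb9, and Nlrc5. They were followed in H3K27ac HiChIP of mouse CD8+ T cells, an assay that joins DNA ends lying near each other in the nucleus, pulls down those carrying the active chromatin mark H3K27ac and counts how often 2 genome bins were joined. A member's data are all listed pairs of 1 kb bins in which at least 1 bin overlaps the gene's annotated span with 5 kb added on either side, here called its window. This rule took 9 of the 8311 protein-coding genes with a listed pair, and 607 of the 121571 pairs listed in any library. All 9 members kept pairs listed in every library, 196 of the 28033 such pairs in the series, and no member was lost to a filter.

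The cells came from C57BL/6J spleen and had been pre-activated for 2 days and then rested for 4 h, per the labels' protocols. The 6 libraries hold 1 library for each of 3 genotypes in 2 treatments: wild type (WT), a CRISPR deletion named Intron and a CRISPR deletion named Upstream, both in the Il2ra super-enhancer, each as control and after IL-2. The other 19 samples of the series are ChIP-seq and were not analysed here. The deposited files carry the replicate number 2 in their names, and other replicates were not analysed here. The labels name no separate animals, cultures or clones, and neither the deletion coordinates nor the dose and length of the IL-2 treatment of the HiChIP cells were used here. With 1 library in each cell of the design, a p-value below rests on how far the IL-2 change differed between genotypes, pooled over features, and not on a spread between like samples. Values of the 6 libraries are given below in the order WT, intron deletion, upstream deletion, with control before IL-2 in each.

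The libraries listed 38879 to 94922 pairs with 1314137 to 3596995 contacts in all, and the control library of the intron deletion was the shallowest. The smallest listed count was 20, and the count of an unlisted pair is not known and is not a 0. The window of Il2ra, the gene whose enhancer was deleted, held 356 and 574, 145 and 213, and 259 and 306 contacts, which gave a log2 fold change of -1.05 (SE 0.11, adjusted p = 0.000109) for the intron deletion and -0.37 (SE 0.10, adjusted p = 0.178) for the upstream deletion. The CD8+ T cell list held Cd8a and Cd8b1 and the general T cell genes Cd3e, Cd3d, Cd3g, Cd247 and Trac. All 7 had a listed bin, with a summed scaled coverage of 35368 to 38173. The B cell genes Ms4a1 and Pax5, the myeloid genes Lyz2, Itgam and Csf1r and the erythroid genes Hba-a1 and Gata1 had none in any library. The summed level of the B cell list was 1253 to 1876 in control and 1261 to 1908 in IL-2 libraries, carried mainly by Cd79a, and that of the myeloid list was 2066 to 2472 and 2039 to 2574 (Cd68, Tyrobp and Spi1, listed in all 6 libraries), so both ranges overlapped between treatments. Between WT and the intron deletion they did not: the B cell list was 1253 and 1333 in WT against 1876 and 1908 with the intron deletion, and the myeloid list 2066 and 2039 against 2472 and 2574. Single genes of the CD8+ T cell list differed too, in either direction. Cd8a was 4795 and 5102 in WT against 6801 and 7147, and Cd247 4058 and 4068 against 3086 and 3161, while Cd3e overlapped. Of all bins listed in every library, 46.2% were called between WT and the intron deletion. The CD4+ T cell and Treg list had 3 of 4 genes listed (all but Foxp3), summing to 2196 to 3244, and the NK list 2 of 3, at 0 to 265. The part of other cells in the results was not tested.

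Class I molecules show peptides made inside a cell to CD8+ T cells. The proteasome cuts proteins into peptides, with Psmb8 (LMP7) and Psmb9 (LMP2) as the catalytic subunits that replace the constitutive ones in lymphoid or interferon-treated cells. The Tap1 and Tap2 transporter carries the peptides into the endoplasmic reticulum, where tapasin bridges it to a heavy chain paired with beta-2 microglobulin. NLRC5 is a coactivator that binds promoters of class I pathway genes through DNA-bound factors of the RFX, CREB/ATF and NF-Y families. Its binding to the members was not measured here. IL-2 signals mainly through STAT5 and drives growth and effector programmes in activated CD8+ T cells.

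Promoter sequences are shown for a heavy chain, the light chain and the genes of the strongest contact among the members, Psmb9 with Psmb8, read from RefSeq (GRCm38.p6), of which 7 of the 9 members matched an entry. Each is the stretch just before the annotated start, 5′ to 3′ in the direction of the gene. Capitals mark a STAT motif (TTCNNNGAA), an interferon-stimulated response element (a pair of GAAA half-sites with 2 bases between them), a CCAAT box (CCAAT, or ATTGG on the other strand), an NF-kB core (GGGATTCCC) and the CREB/ATF half-site TGACG. Both strands were searched, and the last 2 motifs were added after the sequences had been seen. The first sequence is from chr17:35262844-35263093 (plus strand), the second from chr2:122147437-122147686 (plus), the third is the whole stretch between the starts of the divergent genes Psmb9 and Tap1 at chr17:34187331-34187555 (direction of Tap1), and the fourth is from chr17:34197945-34198194 (plus).
H2-D1: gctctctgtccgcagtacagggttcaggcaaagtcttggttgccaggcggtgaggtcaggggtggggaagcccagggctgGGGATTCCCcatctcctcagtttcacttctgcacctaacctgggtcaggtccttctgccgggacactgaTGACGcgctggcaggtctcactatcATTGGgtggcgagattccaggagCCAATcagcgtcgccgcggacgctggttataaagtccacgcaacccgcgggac
B2m: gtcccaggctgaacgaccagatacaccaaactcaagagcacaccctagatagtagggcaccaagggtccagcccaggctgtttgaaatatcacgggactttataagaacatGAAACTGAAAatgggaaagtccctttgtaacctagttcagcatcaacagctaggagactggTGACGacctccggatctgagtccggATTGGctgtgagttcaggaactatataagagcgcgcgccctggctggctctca
Psmb9/Tap1: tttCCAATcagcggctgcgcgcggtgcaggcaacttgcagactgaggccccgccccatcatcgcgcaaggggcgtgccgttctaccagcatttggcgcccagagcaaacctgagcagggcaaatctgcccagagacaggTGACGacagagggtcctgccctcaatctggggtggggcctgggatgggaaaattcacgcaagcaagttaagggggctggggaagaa
Psmb8: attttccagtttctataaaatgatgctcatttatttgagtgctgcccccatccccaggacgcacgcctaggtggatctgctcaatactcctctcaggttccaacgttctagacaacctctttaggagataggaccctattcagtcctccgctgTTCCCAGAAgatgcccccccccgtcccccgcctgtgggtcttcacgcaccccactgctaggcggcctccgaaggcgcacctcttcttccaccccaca

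The 250 bases before the start of H2-K1 lie inside that gene's annotated span and were 89.5% identical to those of H2-D1 over 190 aligned bases, against 62.2% over 217 bases for H2-D1 and B2m. The NF-kB core stood in the promoters of H2-K1 and H2-D1, at -170 to -162 from the start in H2-D1, and in 85 of 27025 promoters in all (0.3%). The half-site TGACG was present in 5 of the 7 member promoters (17.8% of all promoters), and Psmb9 and Tap1 share 1 copy between their starts. A CCAAT box was present in 6 of 7 (34.5% of all), of which Psmb9 and Tap1 again share 1 copy. The exact pattern of the interferon-stimulated response element matched B2m alone of the 7 (3.0% of all). The STAT pattern matched Psmb8 alone (7.1% of all). Variants of these patterns were not searched, so a promoter without a match may still hold such an element. A looser NF-kB pattern (GGG and CC with any 5 bases between them), which takes in the core and is not in capitals, was present in 5 of 7 and in 45.4% of all promoters. Psmb9 and Tap1 share matches to it as well. These matches describe letters in the window and do not show binding.

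Of the 9 genes, 7 lie on chromosome 17 within the mouse MHC. H2-K1 spans chr17:33996012-34000619, Tapbp chr17:33919478-33929290 and H2-D1 chr17:35263094-35267497, with 1262 kb between H2-K1 and H2-D1. Psmb9, Tap1, Psmb8 and Tap2 lie next to each other in this order in 34.3 kb (chr17:34182030-34216321), and their windows overlap. B2m lies on chromosome 2 (chr2:122147687-122153082) and Nlrc5 on chromosome 8 (chr8:94434335-94527272). All shared pairs of Tap2 (27), Psmb8 (51) and Psmb9 (61) are also among the 73 of Tap1, so these 4 genes are nearly 1 measurement and not 4.

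Coverage was described at the leading bin of each gene. It is the count deposited for a bin, here divided by a library scaling factor. At the leading bin, the one with the highest mean in each window, it was 7315 ± 429 (SD over the 6 libraries) for the bin that Psmb9 and Tap1 share, 6889 ± 361 for Psmb8, 6173 ± 600 for H2-D1, 6092 ± 493 for Tapbp and 5850 ± 416 for B2m. H2-K1 followed with 4718 ± 324, Nlrc5 with 4351 ± 315 and Tap2 with 2791 ± 195. The median over all 18580 bins listed in every library was 1172, and the leading bins stood between the 80.7 percentile (Tap2) and the 98.6 percentile (Psmb9 and Tap1) of those bins. As the highest bin of each window was taken, these ranks describe that bin and not the whole window: 6 of the 9 shared Nlrc5 bins lay below the median. The library ranges of neighbours in this order overlapped, except between B2m (5240 to 6215) and H2-K1 (4293 to 5139) and between Nlrc5 (3983 to 4814) and Tap2 (2572 to 3053). The bin holding the annotated start was the leading bin of H2-K1, H2-D1, Tapbp and Psmb8.

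**Figure D1:**
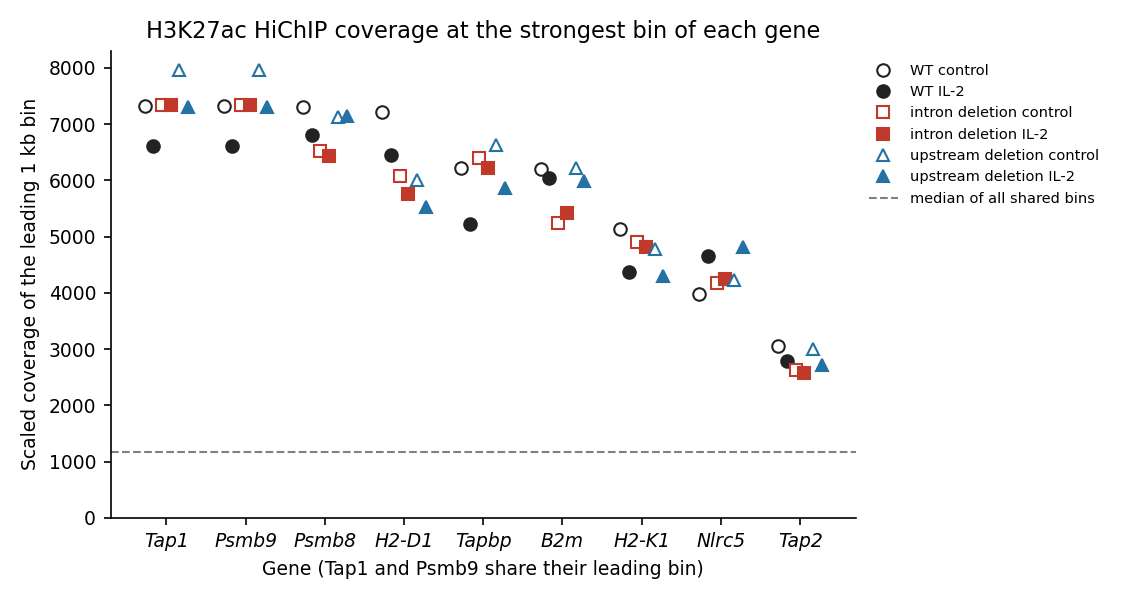
Scaled H3K27ac HiChIP coverage (vertical axis, counts after library scaling) of the leading 1 kb bin of each gene (horizontal axis), 1 point per library, open for control and filled for IL-2, with the median of all shared bins dashed. All 54 points lie above the dashed median of 1172, and Tap2 is the lowest gene in every library.

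The strongest contact among the members joined Psmb9 to Psmb8. The bin inside Psmb9 next to the start it shares with Tap1 (chr17:34186001-34187000) and the bin at the Psmb8 start (chr17:34198001-34199000) shared 212 and 243, 150 and 216, and 203 and 185 contacts. After scaling these were 202 and 200, 194 and 198, and 222 and 194, so the pair was nearly level over the 6 libraries. The same Psmb8 bin met a bin inside Tap1 (chr17:34189001-34190000) with 201 and 193, 106 and 198, and 190 and 177 contacts, and the leading bin of Tap2 with 95 and 135, 76 and 130, and 125 and 96. Pairs that join one span of the cluster to another were listed for all 6 gene combinations, with 20 joining Tap1 to Psmb8, 14 of them in every library, and 21 joining Tap1 to Tap2, 5 of them in every library.

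The heavy chain genes made their leading contacts with unrelated neighbours. The start bin of H2-K1 shared 85 and 63, 51 and 66, and 62 and 65 contacts with a bin of Slc39a7 and Rxrb, a zinc transporter and a retinoid receptor gene 31 kb away. It also met Ring1, a Polycomb gene 24 kb away, and Rps18 with Vps52 45 kb away on the other side. The start bin of H2-D1 shared 117 and 134, 81 and 115, and 106 and 94 contacts with a bin of the RNA helicase gene Ddx39b at 21 kb. No pair joined the spans of H2-K1 and H2-D1. H2-K1 and Tapbp were joined by 5 pairs, none of them listed in every library.

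B2m had the fewest shared pairs of the chromosome 17 and chromosome 2 members, 16, and its leading bin met Spg11 (59 and 60, 51 and 53, and 57 and 46 contacts), Patl2 and Trim69. The listed B2m bins and the Trim69 bins also overlap the annotated span of Patl2, so Patl2 is not a separate partner. Tapbp had 45, and its start bin, shared with Zbtb22, met the histone chaperone gene Daxx and Pfdn6 with Wdr46. The leading pair of Tapbp joined a Daxx bin (chr17:33915001-33916000) to the bin after the start bin (chr17:33920001-33921000). That pair held 148 and 149, 87 and 149, and 123 and 109 contacts. Nlrc5 had 14 shared pairs, the fewest of all 9. Its leading bin, which holds the low-coordinate end of the annotated gene, met a bin 7 kb inside the gene (48 and 65, 35 and 54, and 47 and 57 contacts) and a group of intergenic bins on its outer side (chr8:94411001-94431000).

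Nlrc5 was the one member that passed the test for IL-2. Its shared pairs summed to 458 and 706, 381 and 606, and 443 and 544 contacts. Scaled, the control libraries held 429 (WT), 494 (intron) and 496 (upstream), and the IL-2 libraries 568, 563 and 574. All 3 IL-2 values were above all 3 control values, and the share of all windows that separate in this way was not counted. The fold was 1.21 (log2 fold change 0.27, SE 0.07, 95% interval 0.12 to 0.42, edgeR quasi-likelihood test, adjusted p = 0.0489), higher in 3 of 3 genotypes with log2 ratios of 0.40 (WT), 0.19 (intron deletion) and 0.21 (upstream deletion). Among all 3522 gene windows 82 rose and 43 fell, or 3.55% called in either direction and 2.33% higher, and 1 member of 9 was called higher.

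Among the alternatives, leaving out either library of a genotype gives nearly the same IL-2 values, so these are not separate checks. The Nlrc5 call stood close to the threshold. It was kept in 3 of 14 alternatives and lost in the others: adjusted p was 0.259 by DESeq2, 0.603 and 0.531 when WT lost its control or its IL-2 library, 0.19 and 0.493 when the upstream deletion did, and 0.0677 for the gene span alone. Over all 14 it ran from 0.00349 to 0.921. Scaling by all listed contacts, which shifted the median of all gene windows by -0.29, gave Nlrc5 -0.02, or 0.27 above that shift.

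**Figure D2:**
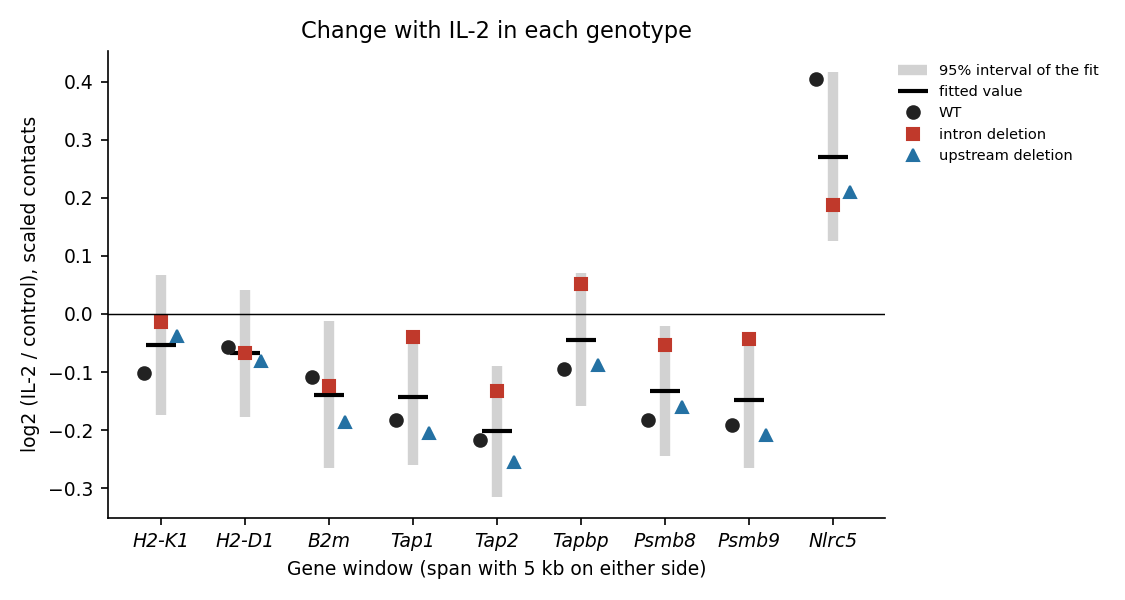
Log2 ratio of IL-2 to control scaled contacts (vertical axis) in the window of each gene (horizontal axis), 1 point per genotype, with the fitted value as a black bar and its 95% interval in grey. Nlrc5 lies above 0 in all 3 genotypes (0.40, 0.19 and 0.21), Tapbp has 1 point above 0, and the other 7 genes have all points below 0.

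All 14 shared pairs of Nlrc5 have an end in its start bins (chr8:94433001-94437000), and they are described below in 3 groups chosen after the values were seen. Of the 14 pairs 12 had an IL-2 log2 fold change above 0, with a median of 0.27 against -0.00 over all 28033 pairs, and none passed the test on its own (lowest adjusted p 0.117; 3.3% of all pairs called). The 6 pairs between the start bins and the outer intergenic bins summed, scaled, to 179 and 280, 233 and 292, and 227 and 262. The 6 pairs to bins inside the gene at chr8:94439001-94447000 summed to 198 and 242, 198 and 208, and 201 and 244. The 2 pairs to bins deeper in the gene at chr8:94457001-94460000 summed to 59.1 and 57.5, 62.2 and 55.9, and 55.7 and 63.9. The first 2 groups were higher with IL-2 in 3 of 3 genotypes and the third in 1 of 3, and the difference between groups was not tested.

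Bin coverage differed along Nlrc5 in the same libraries. The start bin chr8:94434001-94435000 had a scaled coverage of 3983 and 4654, 4181 and 4247, and 4227 and 4814 (log2 fold change 0.15, SE 0.05, adjusted p = 0.109), and the next bin 3172 and 3725, 2646 and 2878, and 2952 and 3467 (0.20, SE 0.05, adjusted p = 0.0633). The inner bin chr8:94458001-94459000 held 1515 and 1051, 1406 and 1231, and 1529 and 906 (-0.49, SE 0.11, adjusted p = 0.0616). Control values of the inner bin lay above all IL-2 values and those of the start bin chr8:94434001-94435000 below all of them (4227 against 4247 at the nearest), while the treatments overlapped in the next bin. The share of all bins that separate in this way was not counted. None of the 18580 bins passed this test for IL-2 (0.0% called), while 6801 had an unadjusted p under 0.05 and DESeq2 called 2150, with an adjusted p of 0.00166 for the inner bin. Leaving out 1 library at a time gave 0.11 to 0.21 for the start bin, 0.18 to 0.23 for the next bin and -0.63 to -0.36 for the inner bin.

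**Figure D3:**
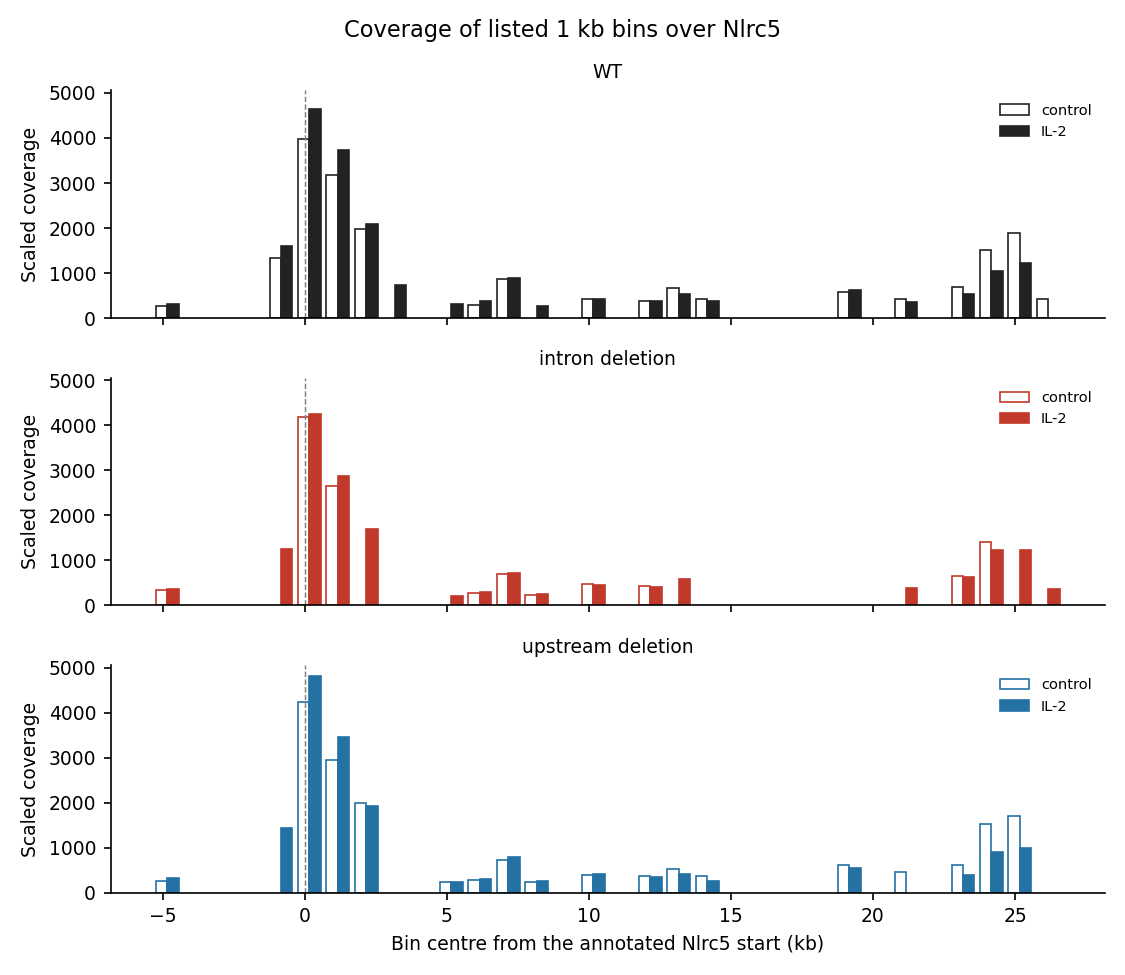
Scaled coverage (vertical axis) of the listed 1 kb bins of the Nlrc5 window against the distance of the bin centre from the annotated low-coordinate end of the gene (horizontal axis, kb), 1 panel per genotype, control open and IL-2 filled; a gap is an unlisted bin. The start bin is higher with IL-2 in each panel (3983 to 4654 in WT), and the bin about 24 kb inside is lower in each (1515 to 1051 in WT).

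None of the transporter and immunoproteasome genes passed the test for IL-2 at the gene window, and their values lay on the other side of 0. The Tap2 window held, scaled, 1634, 1535 and 1738 contacts in the control libraries of WT, the intron and the upstream deletion, and 1406, 1400 and 1456 after IL-2. The log2 fold change was -0.20 (SE 0.05, adjusted p = 0.0538). The treatments did not overlap, but the share of all windows without overlap was not counted. By the edgeR test, 790 of 3522 windows had an unadjusted p under 0.05. Psmb9 had -0.15 (SE 0.05, adjusted p = 0.127), Tap1 -0.14 (SE 0.05, adjusted p = 0.134) and Psmb8 -0.13 (SE 0.05, adjusted p = 0.15), with the scaled values of the 2 treatments overlapping for each of these 3 genes. All 4 had a ratio below 0 in 3 of 3 genotypes (49.1% of all windows had a fitted value below 0), smallest in the intron deletion (-0.13 for Tap2 and -0.04 for Psmb9 there). Leaving out either intron deletion library gave nearly the same IL-2 values, as the other one then adds next to nothing to the estimate. Tap2 was -0.23 there, in a fit without the genotype of the smallest ratios. With all libraries kept, Tap2 passed with DESeq2 size factors (adjusted p = 0.0493), scaled by listed contacts (0.04) and among the better filled windows (0.0467). Scaling by listed contacts shifted the median of all gene windows by -0.29, with 0 windows called higher and 205 lower. Over all 14 alternatives Tap2 was below 0 in each but passed in only 5, with omissions of a library counted apart.

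Of the 73 shared pairs of this cluster 62 had an IL-2 log2 fold change below 0, 84.9% against 50.1% of all pairs, with a median of -0.17. These pairs share bins and are not independent of each other. A single pair passed the test and fell, the Psmb9 bin chr17:34186001-34187000 with a second Psmb8 bin, chr17:34200001-34201000: it held 130 and 111, 99 and 86, and 117 and 91 contacts (log2 fold change -0.51, SE 0.13, adjusted p = 0.00907; 0.731% of all pairs called lower). Raw counts were lower with IL-2 in each genotype. The call was kept in 5 of 10 alternatives, with either library of a genotype left out counted apart, and not in DESeq2 (adjusted p = 0.746). The stronger pair from the same Psmb9 bin to the Psmb8 start, given above, did not pass. Of the 26 bins of the cluster 25 had an IL-2 value below 0 (50.4% of all bins), with a median of -0.10 and none past the test.

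B2m, the heavy chains and Tapbp did not pass for IL-2 either. The B2m window held 639, 615 and 687 scaled contacts in control and 593, 564 and 604 after IL-2 (log2 fold change -0.14, SE 0.06, adjusted p = 0.189). Its treatments did not overlap, and how many of all windows show this was not counted. H2-D1 held 1422, 1333 and 1315 in control and 1368, 1272 and 1244 after IL-2 (-0.07, SE 0.05, adjusted p = 0.461), and H2-K1 894, 788 and 756 against 833, 781 and 736 (-0.05, SE 0.06, adjusted p = 0.611). Both heavy chains overlapped between treatments. Tapbp had -0.04 (SE 0.05, adjusted p = 0.661), with a ratio above 0 in the intron deletion (0.05) and below 0 in WT (-0.10) and the upstream deletion (-0.09). The 95% intervals of these 4 genes lay between -0.27 (B2m) and 0.07 (Tapbp and H2-K1).

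**Figure D4:**
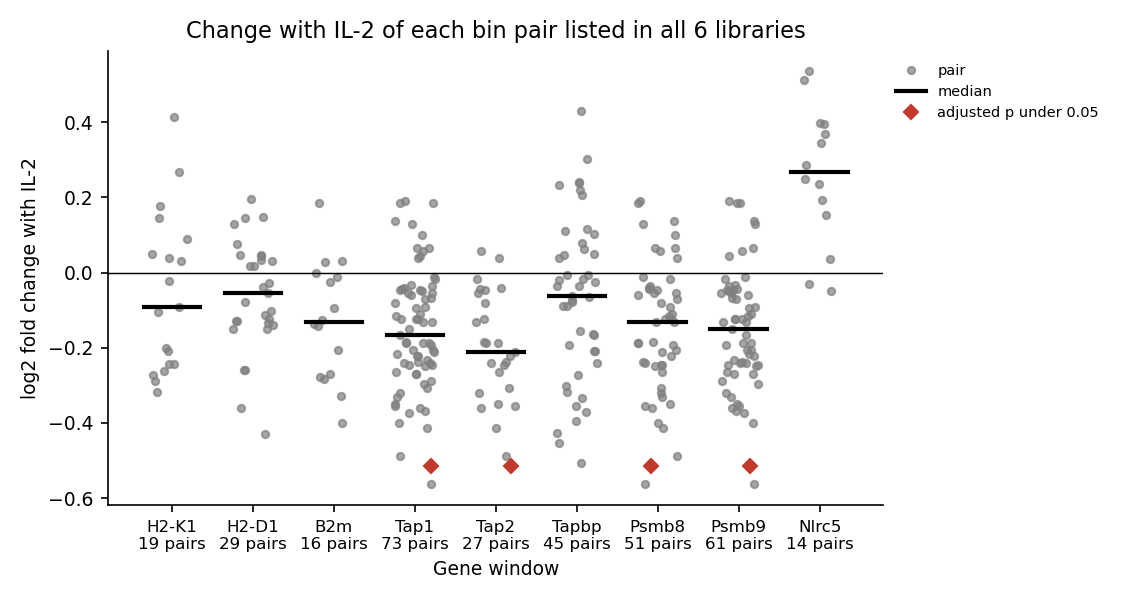
Fitted log2 fold change with IL-2 (vertical axis) of each pair listed in all 6 libraries, grouped by gene window (horizontal axis, with the number of pairs), with medians as black bars and the pair past adjusted p 0.05 as a red diamond. Medians lie at 0.27 for Nlrc5, below 0 for the other 8 genes and lowest for Tap2 (-0.21); the diamond is 1 pair counted for Tap1, Tap2, Psmb8 and Psmb9.

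No member passed the test of a different IL-2 response in one genotype. The smallest adjusted p were 0.233 for Psmb9 and 0.235 for Tap1 in the intron deletion, where the response lay 0.16 (SE 0.06) and 0.15 (SE 0.06) above that of the other 2 genotypes on the log2 scale. Of all 3522 windows 134 passed that test for the intron deletion (3.8%), and by edgeR 0 for the upstream deletion (109 at an unadjusted p under 0.05) and 0 for WT (64). The larger Nlrc5 ratio in WT differed from the rest by 0.21 (SE 0.18, adjusted p = 1.0).

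No member window passed the test for the intron deletion, where 333 of 3522 gene windows were higher and 294 lower than WT (17.8% called). H2-K1 had the largest value, with 894 and 833 scaled contacts in WT (control first) and 788 and 781 in the intron deletion (log2 fold change -0.14, SE 0.07, adjusted p = 0.187). H2-D1 had -0.10 (SE 0.06, adjusted p = 0.284), and the other 7 lay between -0.09 (Psmb8) and 0.08 (Nlrc5). At single pairs 5 of 196 passed (11.3% of all pairs called), 1 higher (6.27% of all) and 4 lower (5.03% of all). The higher one joined Smim40 to the Tapbp start bin, with 30 and 26, 37 and 42, and 33 and 27 contacts (0.79, SE 0.24, adjusted p = 0.019). Both counts of the intron deletion exceeded those of WT.

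The 4 lower pairs fell within or beside the genes. The pair of a Tap1 bin and the Psmb8 start (chr17:34192001-34193000 and chr17:34198001-34199000) held 141 and 162, 63 and 96, and 99 and 113 contacts (log2 fold change -0.65, SE 0.17, adjusted p = 0.00209), and that of a Psmb8 bin and a Tap2 bin (chr17:34200001-34201000 and chr17:34205001-34206000) 80 and 59, 31 and 38, and 50 and 54 (-0.71, SE 0.23, adjusted p = 0.0242). B2m with Trim69, a ubiquitin ligase gene, in bins that both also overlap Patl2, held 47 and 60, 22 and 28, and 42 and 44 contacts (-0.81, SE 0.27, adjusted p = 0.0217). The pair of the bin beside H2-K1 and H2-Ke6 held 52 and 79, 25 and 44, and 26 and 40 contacts (-0.66, SE 0.24, adjusted p = 0.0462). In raw counts the intron deletion lay below WT in each of the 4, in control and in IL-2, and its library was the shallower one in both. None of the 5 calls was kept when either WT library was left out, and DESeq2 gave 3 of them an adjusted p of 0.378 to 0.703 and the other two none.

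Of the 60 member bins listed in every library, 1 had higher and 8 had lower coverage in the intron deletion (46.2% of all bins called, 21.7% higher and 24.5% lower). The higher bin lay 5 kb before H2-D1 (chr17:35258001-35259000; 0.47, adjusted p = 0.0113). Its scaled coverage was 745 and 782, 1051 and 1069, and 1176 and 974. The upstream deletion was thus above WT there as well (0.49, adjusted p = 0.0668), so this difference is not particular to the intron deletion. Among the lower ones were the second Nlrc5 bin named above (-0.32, adjusted p = 0.00752), a Tap2 bin (chr17:34205001-34206000; -0.43, adjusted p = 0.00723), an H2-K1 bin (chr17:33999001-34000000; -0.36, adjusted p = 0.00672) and a Tap1 bin (chr17:34188001-34189000; -0.33, adjusted p = 0.0385). In the same order the upstream deletion gave -0.10, -0.24, -0.25 and 0.003 at these named lower bins, none of them past the test. The count of 9 in 60 stands below the share of all bins called.

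No member window passed for the upstream deletion either, where 5 of 3522 windows were higher and 1 lower than WT (0.17% called). H2-K1 held 894 and 833 scaled contacts in WT and 756 and 736 in the upstream deletion, below both WT values (log2 fold change -0.21, SE 0.07, adjusted p = 0.233), and H2-D1 1422 and 1368 in WT against 1315 and 1244 (-0.12, SE 0.06, adjusted p = 0.434). The other 7 genes had values from 0.04 (Tapbp) to 0.10 (Nlrc5, Psmb9 and Tap1). Of the 19 shared pairs of H2-K1 13 lay below 0 with a median of -0.23, and of the 29 of H2-D1 23 with a median of -0.18, against 49.6% of all pairs and a median of 0.00. H2-K1 passed in the fit of WT and upstream deletion libraries alone (adjusted p = 0.0249), in which 247 windows were called in place of 6. Leaving out either intron deletion library comes to nearly that fit, as the other one then adds next to nothing to this contrast. These settings are thus not separate checks.

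A single pair of 196 passed for the upstream deletion and fell (0.0785% of all pairs called, 0.0321% lower). It joined the bin just before H2-K1 (chr17:34001001-34002000) to Rps18 and Vps52 (chr17:33955001-33956000) and held 47 and 69, 31 and 39, and 24 and 20 contacts (-1.11, SE 0.27, adjusted p = 0.0275). The upstream deletion had the lowest counts of the 3 genotypes, near the smallest listed count. It was -0.81 at an adjusted p of 0.932 when the IL-2 library of WT was left out, -1.38 at 0.129 when the control library of WT was, and did not pass by DESeq2. At bins, 1 of 60 was lower (1.69% of all bins called, 0.484% lower), the bin beyond the 3′ end of H2-K1 (chr17:33991001-33992000), with a scaled coverage of 810 and 850, 688 and 695, and 564 and 609 (-0.50, adjusted p = 0.0402).

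**Figure D5:**
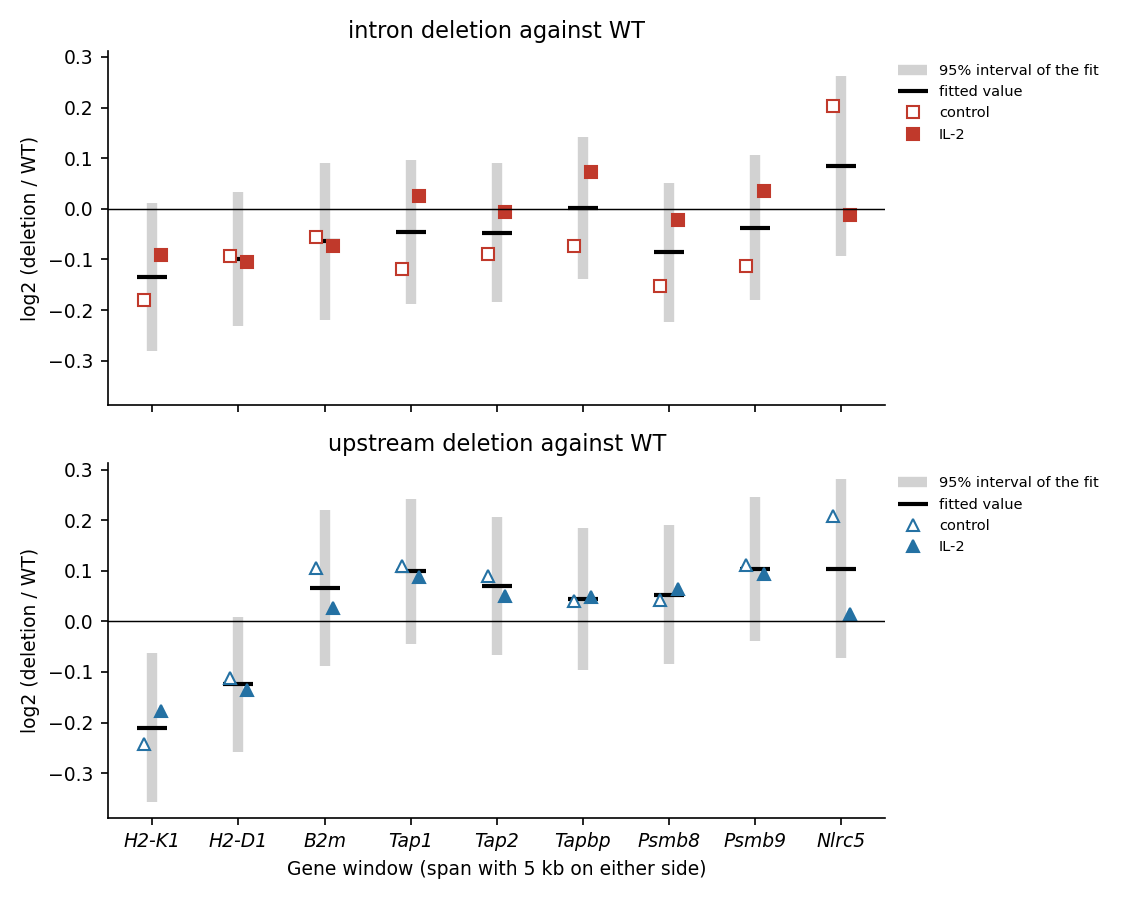
Log2 ratio of each deletion to WT (vertical axis) in the window of each gene (horizontal axis), in control (open) and IL-2 (filled) libraries, with the fitted value as a black bar and its 95% interval in grey. H2-K1 has the lowest fitted value in both panels (-0.14 and -0.21), and no gene passed the test in either.

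Other genes of the pathway were read from 5 lists. Of 15 other class I heavy chain genes 7 were measured, and none passed for IL-2 or the upstream deletion. For the intron deletion H2-Q6 (log2 fold change -0.36, adjusted p = 0.0136) and H2-Q7 (-0.31, adjusted p = 0.0292) fell and H2-T24 rose (0.19, adjusted p = 0.0456), 3 of 7 against 17.8% of all windows. In the same order the upstream deletion gave -0.15, -0.16 and 0.18. H2-Q6 and H2-Q7 rest on 12 and 10 pairs with near-parallel counts, and pairs they have in common were not counted. They may be nearly 1 measurement, so 3 of 7 may overstate the calls. Reads of closely related class I genes, H2-K1 and H2-D1 included, can be split or lost in mapping. Of 7 peptide loading genes 5 were measured, and Canx, the chaperone calnexin, fell in the intron deletion (-0.32, adjusted p = 0.0363), 1 of 5 against 17.8% of all windows. All 4 other proteasome genes searched (Psmb10, Psme1, Psme2 and Psme3) were measured. The window shared by Becn1 and Psme3 rose with IL-2 (0.63, SE 0.12, adjusted p = 0.0193), 1 of 4 against 2.33% of all windows called higher. It rests on 2 pairs, with 90 and 169, 62 and 123, and 73 and 122 contacts. Calls of list genes were not checked under the alternatives. Psme3 encodes a nuclear proteasome activator that, unlike the other 3 proteasome genes, is not known as interferon-inducible.

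Of 14 regulators of class I transcription 10 were measured, and none passed for IL-2. In the intron deletion Irf1, an interferon-response factor gene, rose (545 and 793, 528 and 843, and 580 and 630 contacts; 0.35, adjusted p = 0.0106), as did Creb1 (0.49, adjusted p = 0.0178), and the Polycomb methyltransferase gene Ezh2 fell (-0.49, adjusted p = 0.000461), 3 of 10 against 17.8% of all windows. Median changes of this list were 0.02 for IL-2, 0.10 for the intron and 0.05 for the upstream deletion, against 0.01, -0.01 and -0.00 over all windows. Of 9 class II genes 3 were measured and none passed in any contrast, and H2-Aa, H2-Ab1, Cd74 and Ciita had no pair listed in all libraries.

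Windows most like each member over the 6 libraries, by Pearson correlation of log2 CPM and sharing no pair with it, are given as a description of 6 points. Nlrc5 was most like Gm17266 (r = 0.98), Ubac2 (0.975) and Wipf1 (0.965). Nfkbia, the NF-kB inhibitor gene, was among the 3 windows most like Tap1 (0.983) and Psmb9 (0.99). H2-D1 was most like Hgh1 (0.995), H2-K1 Tbc1d17 (0.983), and B2m the window of Alg5, Exosc8 and Supt20 (0.993). Tap2 was most like LOC115488016 (0.988), Psmb8 Dnajb12 (0.989) and Tapbp the window of Bmi1 and Commd3 (0.985). The members themselves ranged over 0.14 (Tapbp) to 0.42 (Nlrc5) on the log2 scale across the 6 libraries.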

How the data were processed

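Of 25 samples, the 6 HiChIP libraries were used. The submitters' processing notes name CASAVA, HiC-Pro and Bowtie2 2.2.6, with mm10 (GRCm38) as the build. The authors deposited per library a headerless list of bin pairs at 1 kb in the layout of FitHiChIP, with whole-number contact counts per pair and coverage counts per bin; the smallest listed count was 20 and the shortest distance 5 kb. The names of the files give FitHiChIP, which no header or label states, and the meaning of the columns is taken from that layout.

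Counts of pairs listed in all 6 libraries were summed per gene window (RefSeq GRCm38.p6 spans with 5 kb added), giving 3522 windows after genes with identical pair sets were merged. Summing only shared pairs keeps pairs that were listed in the shallowest library. Windows, pairs and bins were each tested with edgeR 4.0.16 (R 4.3.3): TMM scaling, quasi-likelihood fit of genotype plus treatment with 2 residual degrees of freedom, Benjamini-Hochberg adjustment over all features of a table and a threshold of 0.05. Scaled values are counts divided by TMM library factors with mean 1. A different IL-2 response was tested with 1 added term. DESeq2 1.42.0 was an alternative, with other scalings, filters, unlisted pairs set to 0 or 19, and each library left out. Scripts were tested on simulated data.

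Named items are all 9 members, their leading bins and pairs (highest mean), up to 10 rises and 10 falls per contrast among pairs past the threshold (of the called bins, 5 of 9 for the intron deletion by name), the 3 most alike windows (the first alone for most members; 1 window and 2 marker genes are not reported here) and 5 pathway lists. Nlrc5 bins and regions were singled out after their values were seen. Members and lists were chosen with earlier results of these data known.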

Additional observations from a re-analysis of the deposited data

How the results depend on the processing

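For IL-2, the 125 called gene windows became 205 (0 higher, 205 lower) when scaled by listed contacts, 54 by DESeq2, 67 with the gene span alone, 0 and 20 with unlisted pairs at 0 and 19, 0 with treatment alone, and 0 to 842 leaving out 1 library; the 924 pairs became 1630 (46 higher, 1584 lower) and 3 in the first 2 settings and 46 to 1825 leaving out 1 library, and the 0 bins 9702, 2150 and 0 to 10125. For the intron deletion, the 627 windows became 225 by DESeq2, 311 with unlisted pairs at 0 and 213 to 1030 leaving out 1 library (560 higher and 6 lower when scaled by listed contacts), the 3166 pairs 5595 (5483 higher, 112 lower) scaled by listed contacts, 111 by DESeq2 and 494 to 3285 leaving out 1 library, and the 8592 bins 3815 to 12228. For the upstream deletion, the 6 windows became 16 with DESeq2 size factors, 0 scaled by listed contacts, 2 by DESeq2, 0 with unlisted pairs at 0, 247 with 2 genotypes alone and 0 to 251 leaving out 1 library; the 22 pairs became 81, 2 and 43 (upper part by mean count) and 3 to 86, and the 314 bins 1126, 529, 117 and 1 to 7555. The 134 windows with another IL-2 response in the intron deletion became 215 with DESeq2 size factors and 212 in the upper part by mean count. Leaving out 1 library leaves its genotype with a single one, which is assumed to vary like the others. For IL-2, that single library adds next to nothing to the estimate, so leaving out either library of a genotype gives nearly the same values. The same holds for a deletion contrast when the other deletion loses a library. Such omissions are counted apart among the alternatives but are not separate checks.

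Of 524 values of named members, pairs and bins under an alternative, 403 kept direction and side of the threshold, 65 lost and 24 gained a call, and 32 changed sign. Scaled by listed contacts (median shifts of gene windows -0.29, 0.36 and 0.24), Nlrc5 was -0.024 for IL-2 and its start bins -0.17 and -0.12; for the intron deletion H2-K1 was 0.23, H2-D1 0.27, B2m 0.30, Tap1 0.32, Tap2 0.32, Psmb8 0.28 and Psmb9 0.33; for the upstream deletion H2-K1 was 0.031 and H2-D1 0.12. With unlisted pairs at 0 the intron deletion gave H2-D1 0.052, B2m 0.13, Tap1 0.20, Tap2 0.052, Psmb8 0.16 and Psmb9 0.23. With unlisted pairs at 19 Tapbp was 0.0053 for IL-2, Tapbp -0.080 and Nlrc5 -0.0068 for the intron deletion, and B2m -0.047, Tap2 -0.035, Tapbp -0.068 and Psmb8 -0.030 for the upstream deletion. With the gene span alone Psmb9 was 0.031 for the intron deletion. Leaving out 1 library, the intron deletion gave Tap1 -0.12 to 0.030, Tap2 -0.10 to 0.0024, Tapbp -0.071 to 0.072, Psmb9 -0.12 to 0.040 and Nlrc5 -0.0051 to 0.19. The cause of these changes was not tested. No paired analysis was possible because the labels give no replicate number to use as a block; the genotype term already sets IL-2 against control within each genotype. A pair near 20 contacts carries a counting error that hides all but large changes, and an unlisted pair is not seen at all.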
